A study of Mus musculus with 480 samples.

Results

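The comparison set single lung cells annotated as bronchioalveolar stem cells (BASCs) against single cells annotated as club cells, all labelled by the same reporter. The members were chosen by the labels alone: source Scgb1a1-TD, with sub-type BASCs (38 cells) or club cell (97 cells), out of 160 cells of that line and 480 cells of the series. The mice carried Scgba1a1-CreER;R26-tdtomato, spelled as in the labels, in which a tamoxifen-dependent Cre recombinase driven by Scgb1a1 switches on tdTomato for good, so any cell that transcribed Scgb1a1 when the Cre was active can be labelled. Both groups share this genotype, the tdTomato sort, the tissue and plates 2, 3 and 4. Of the BASCs, 5, 23 and 10 lay on plates 2, 3 and 4, and of the club cells 22, 60 and 15. The labels used here name no age, no inducer dose and no animal, so each group counted as 1 sample, no test between them was possible, and no value below has a replicate check. Beside them are shown the 24 ciliated cells of the same line and cells of 2 other lines. BASCs-Tracer mice carried Sftpc-DreER and Scgba1a1-CreER with the reporter R26-RSR-LSL-tdtomato, which needs both recombinases, and gave BASCs. Sftpc-TD mice carried Sftpc-DreER with R26-RSR-tdtomato and gave alveolar type 2 (AT2) cells. The sub-types may have been assigned from these same counts, so differences in marker genes describe the annotation and are not independent of it.

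Club cells are the secretory cells of the small airways; they release secretoglobins and detoxify inhaled compounds. AT2 cells make surfactant, the lipid and protein film that keeps alveoli open, store it in lamellar bodies, and renew the alveolar epithelium. BASCs lie where the terminal bronchiole opens into the alveoli, are defined by carrying the secretoglobin of club cells together with surfactant protein C of AT2 cells, and can give rise to airway and alveolar cells after injury.

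Depth was similar in both groups. BASCs had a median of 1091820 gene-assigned reads (64939 to 1406784) and club cells 1082690 (4519 to 2419525), with plate 2 shallower at medians of 389476 and 515172. Thinned to 100000 reads per cell, without the 1 BASC and 3 club cells that had fewer, BASCs showed a median of 3014 genes and club cells 3788; unthinned, the medians were 4617 and 5307. Mitochondrial genes took a median 3.86% and 3.20% of reads. A single gene took 25.8% of all BASC reads (Sftpc) and another 25.9% of all club reads (Scgb1a1), and the 10 genes with most reads took 44.5% and 40.6%.

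Several cells stood apart from their label. Of the 97 club cells, 3 held Sftpc at or above the level of the lowest BASC: 1 well-covered cell of plate 3 with 165660 CPM (reads per 1000000 gene-assigned reads) of Sftpc and 133549 CPM of Scgb1a1, and 2 cells of plate 3 with 6131 and 4519 reads. Among the 24 ciliated cells, 2 of plate 3 held Scgb1a1 at 158993 and 213332 CPM, within the club range. A BASC of plate 3 carried endothelial transcripts, with Cldn5 at 3372, Kdr at 1212, Ramp2 at 977, Pecam1 at 734 and Cd34 at 682 CPM beside 151651 CPM of Sftpc. No doublet caller was run, so wells that held more than 1 cell were not removed. Several results that rest on these cells are given with and without them.

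Reads were summed over the cells of a group, in all and per plate, and scaled to CPM. The ratio of a gene is the log2 of BASC over club CPM with 1 CPM added to each, and a fold is that ratio on a linear scale. A gene was called higher or lower in BASCs where it lay 2-fold or more apart in the pool and on each of the 3 plates. Of 10631 genes with 5 CPM or more in either pool, 441 were higher (4.15%) and 1033 lower (9.72%), and the median ratio of all was -0.12. Intervals on CPM are 95% Poisson intervals and hold counting error only, since PCR reads without molecular identifiers are not independent molecules. In the plot of pooled levels, Sftpc and Lyz2 had the highest BASC levels above the diagonal, and Scgb1a1 the highest club level below it.

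**Figure D1:**
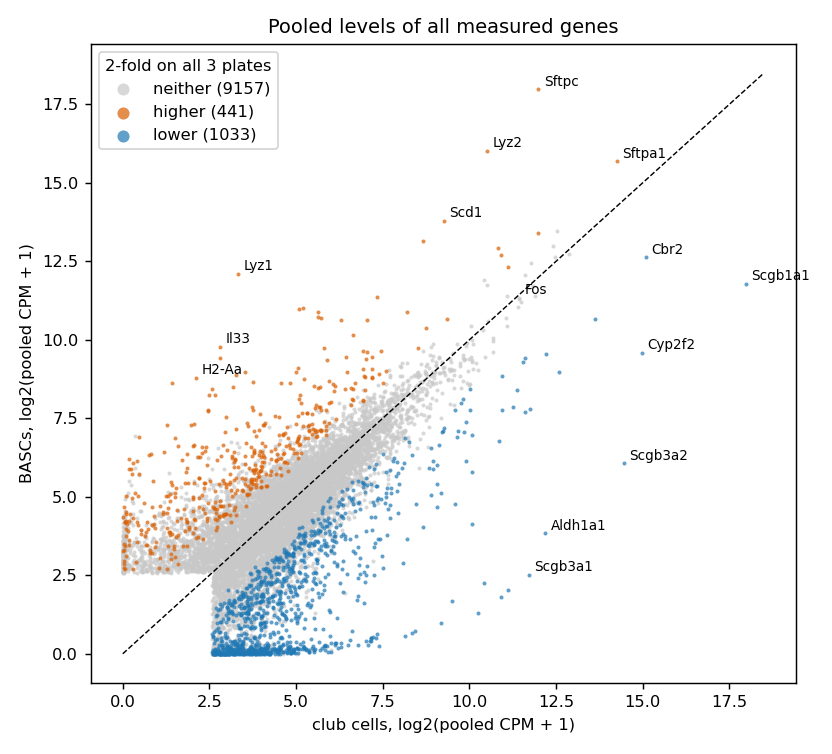
Pooled level of each of the 10631 measured genes in club cells (x axis) and BASCs (y axis), both as log2(CPM + 1); orange points are the 441 genes called higher, blue the 1033 called lower and grey the 9157 called neither, and the dashed line marks equal levels. Scgb1a1 and Sftpc, with 25.9% and 25.8% of the reads of their own pools, lie on opposite sides.

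Genes of AT2 identity were mostly higher in BASCs. Of 18 listed and measured AT2 genes 16 were higher in BASCs and none lower, beside 4.15% of all genes, with a median ratio of 4.80 (4.39, 4.68 and 4.73 on plates 2, 3 and 4). The 2 called neither were Muc1, a surface mucin, at 1537 against 1473 CPM, and Abca3, the lipid transporter of lamellar bodies, at 237 against 128.8 CPM, whose ratio was -0.92 on plate 2 and 1.25 on plate 4. The list shares genes with the surfactant, lipid and innate lists given further on. Its summed level was 416922 CPM in BASCs and 31145 CPM in club cells.

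Sftpc (ENSMUSG00000022097, GRCm38 chromosome 14, 70520949 to 70524081, minus strand) encodes surfactant protein C. It ran from 50586 through a median of 261465 to 352857 CPM over the 38 BASCs and from 219.7 through 780.3 to 165660 CPM over the 97 club cells. Every BASC but 3 lay above every club cell, and the overlap came from the 3 club cells named above. Of these, 2 had only 6131 and 4519 reads, so their 65079 and 52445 CPM rest on few reads. Pooled, it was 63.5-fold higher (258012 CPM, interval 257854 to 258170, against 4062 CPM, 4049 to 4075). The club pool was raised by few cells: the ratio was 5.99 in the pools, 6.88 without the 3 club cells and 8.39 between the medians of single cells. Ciliated cells, which should lack the transcript, held a median of 669 CPM. By plate, their ranges were 1408 to 6291 (plate 2, shared with BASCs-Tracer), 320 to 1065 (plate 3) and 551 to 969 (plate 4). Ciliated cells of plate 2 also differed in depth. Those with 738137 and 563193 reads held 1408 and 1973 CPM. Those with 262574, 228892 and 215361 reads held 4753, 6291 and 4541 CPM. Whether plate or depth set these levels was not tested. Against the highest ciliated cell of the same plate, all 38 BASCs and 26 of the 97 club cells lay above it. The 26 include the 2 club cells with 6131 and 4519 reads, and an effect of depth on this count was not tested.

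Other AT2 genes separated the groups cell by cell. Slc34a2, the phosphate transporter of the AT2 surface, ran from 2226 through 9110.2 to 15784 CPM in BASCs and from 7.33 through 128.9 to 6528 CPM in club cells. Lamp3, a membrane protein of lamellar bodies, had medians of 1985 and 6.96 CPM, and Napsa, a protease that matures surfactant protein B, 1545 and 5.56 CPM. Hc, which encodes complement C5, stood at 2046 against 35.8 CPM. In each of these 4 genes the median club cell lay below the lowest BASC, while 4, 21, 5 and 9 of the 97 club cells reached the BASC range. Etv5, a transcription factor that acts downstream of FGF signalling in AT2 cells, stood at 498 against 10.5 CPM with ratios of 5.31 to 5.82 over plates. Egfl6, a secreted EGF-repeat protein, stood at 358 against 7.99 CPM.

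The 12 genes with the largest weakest-plate ratio above, among genes with 50 CPM or more and a read in 25% or more of BASCs, were Sftpc, Lyz1, Il33, Adam19, Itih4, Fabp5, Acoxl, H2-Aa, Fabp12, Dmkn, Etv5 and Cox6a2. Il33, an alarmin cytokine, ran from 0 through 719 to 3115 CPM in BASCs, with 30 of 38 cells at 100 CPM or more, and had a median of 1.96 CPM in club cells, of which 2 of 97 reached 100 CPM. At 100000 reads a cell, 89.2% of BASCs (Clopper-Pearson interval 74.6% to 96.97%) and 28.7% of club cells (19.9% to 38.98%) held a read of it, against 97.4% and 84.5% unthinned. Such intervals take cells as independent draws and hold no spread between animals, so they are no test between the groups. Adam19, a membrane metalloprotease, had medians of 73.3 and 0 CPM and pools of 119.3 and 0.391 CPM. Itih4, a secreted inhibitor family member, was uneven among BASCs: 19 of 38 cells held 100 CPM or more, the highest 2184 CPM, and the median was 86.2 CPM. Cox6a2, a subunit isoform of cytochrome c oxidase known from heart and muscle, stood at 58.6 against 0.185 CPM, with a read in 26 of 38 BASCs and 16 of 97 club cells.

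The lysozyme genes Lyz1 and Lyz2, tandem neighbours on GRCm38 chromosome 10 that encode the bacteria-lysing enzyme, behaved differently among the same 38 BASCs. Lyz2 (117277331 to 117282321) was high in all of them, from 4896 through 64541 to 129769 CPM, against 50.8, 245 and 47616 CPM in club cells. Lyz1 (ENSMUSG00000069515, 117287797 to 117292868) was split: 9 BASCs held 5021 to 35688 CPM, the next held 514 CPM, and the median was 7.67 CPM, close to the 6.46 CPM of club cells and the 7.64 CPM of ciliated cells. Of these 9 cells 2 lay on plate 2, 6 on plate 3 and 1 on plate 4, so the call of Lyz1 on plate 4 rests on 1 cell. They carried 99.5% of the summed Lyz1 of all BASCs. The pooled 438-fold difference (4426 against 9.12 CPM) was therefore a difference in 9 of 38 cells, and the ratio was 8.77 between the pools and 0.22 between median cells. Lyz2 ran from 4896 through 41162 to 80146 CPM in the 9 cells and from 13867 through 70748 to 129769 CPM in the other 29. The Spearman correlation of the 2 genes over the 38 BASCs was -0.50 (-0.38 over the 23 of plate 3), a description of cells that share plates and depth. Reads of near-identical copies can be assigned to either gene, so a low Lyz1 level beside a high Lyz2 level is uncertain.

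How alike these neighbours are just upstream is shown because one was uneven and the other was not. The stretches run 5′ to 3′ on the genes' strand (minus), end 50 bases before the RefSeq transcript start (GRCm38.p6), and capitals mark positions at which they differ.
Lyz1, chr10:117292918-117292993: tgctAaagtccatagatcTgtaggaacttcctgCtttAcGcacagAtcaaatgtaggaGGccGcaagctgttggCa
Lyz2, chr10:117282322-117282397: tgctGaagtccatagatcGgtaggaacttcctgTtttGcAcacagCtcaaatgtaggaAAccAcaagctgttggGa
Compared without gaps, 66 of these 76 positions were identical, as were all of the 49 positions that follow. No measurement here bears on binding at these bases.

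**Figure D2:**
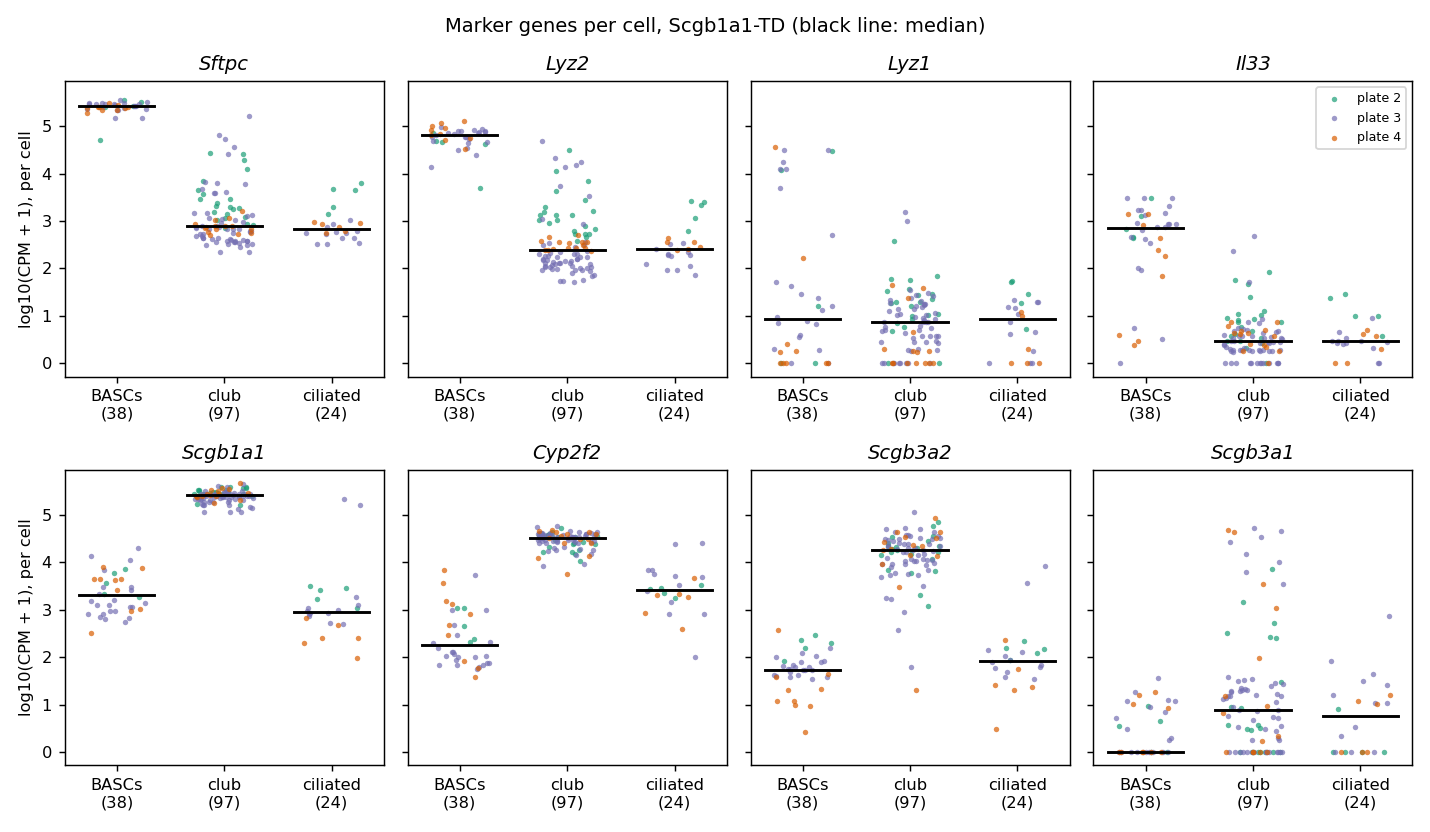
Level of 8 genes in single cells of Scgb1a1-TD as log10(CPM + 1) on the y axis, for 38 BASCs, 97 club cells and 24 ciliated cells, coloured by plate, with a black line at each median. Sftpc and Lyz2 are high in all BASCs, Lyz1 in 9 of them, and Scgb1a1 and Cyp2f2 separate club cells from BASCs without overlap in Scgb1a1; the 2 ciliated cells in the club range of Scgb1a1 are visible.

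Genes of club identity were mostly lower in BASCs. Of 17 measured members of 18 listed, 15 were lower in BASCs and none higher, beside 9.72% of all genes, with a median ratio of -4.41 (-5.08, -4.99 and -3.86 on plates 2, 3 and 4). Called neither were Nupr1, a stress-response regulator, at 560.4 against 612 CPM, and the uroplakin gene Upk3a, read in 2 BASCs and 8 club cells. The club list shares genes, such as Cyp2f2, with the detoxification lists given further on, so these counts are not separate.

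Scgb1a1 (ENSMUSG00000024653, chromosome 19, 9083636 to 9087958, minus strand), the secretoglobin that gave the line its driver, ran from 329 through 2014 to 19981 CPM in BASCs and from 113019 through 257566 to 465043 CPM in club cells. The groups did not overlap, and the pooled level was 73.5-fold lower in BASCs (3518, interval 3499.6 to 3536, against 258576 CPM, 258475 to 258677). Scgb3a2 (ENSMUSG00000038791, chromosome 18, 43764289 to 43767399), a second airway secretoglobin, ran from 1.58 through 53.7 to 366 CPM in BASCs and from 19.3 through 18147 to 117269 CPM in club cells, 337-fold lower in the pool. All but 2 club cells lay above the highest BASC.

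Scgb3a1, a further secretoglobin, was uneven among club cells: 14 of 97 held 1000 CPM or more, up to 52258 CPM, and these held 99.3% of the summed level, while the median club cell held 6.54 CPM. No BASC exceeded 34.6 CPM, so the pooled 587-fold difference was carried by 14 club cells. Aldh1a1, which makes retinoic acid from retinal, was by contrast lower cell by cell, with medians of 12.2 and 4647 CPM. Cbr2, a carbonyl reductase, was lower by less, at 6348 against 35111 CPM (5.53-fold), and the median of 4729 CPM in BASCs stayed below the 14623 CPM of ciliated cells. On plate 4 its median was 5772 CPM in the 10 BASCs and 13539 CPM in the 60 AT2 cells of Sftpc-TD. Of those BASCs, 2 lay above the AT2 median. Gabrp, a GABA receptor subunit, stood at 2.24 against 722 CPM, and Hp, which encodes haptoglobin, at 1614 against 12570 CPM.

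The 12 genes with the largest weakest-plate ratio below included Scgb1a1, Scgb3a2, Scgb3a1, Aldh1a1, Cp, Muc5b, Chad, Lypd2, Ces1f, Lrrc26 and Enah. Cp, which encodes the copper oxidase ceruloplasmin, had medians of 3.2 and 882 CPM. Chad, a matrix protein, Lypd2, a surface protein, Lrrc26, a potassium channel subunit, and Enah, an actin regulator, had pooled club levels of 322, 284, 133.9 and 159 CPM, against 0.579, 0.478, 0.201 and 0.553 CPM for the BASC pool. The median BASC held no read of any of these last 4.

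Whether BASCs of this line carried club transcripts above what other cells of the same plates held was examined next. Leaving out the 2 ciliated cells in the club range, ciliated cells held Scgb1a1 at 92.9 to 3097 CPM, and 20 of 38 BASCs lay above the highest ciliated cell of their plate: 3 of 5 on plate 2, 8 of 23 on plate 3 and 9 of 10 on plate 4. With those 2 cells kept, the count was 12 of 38. Those 2 were set aside by their level of Scgb1a1, the gene counted here, so the higher count follows from that choice. Ciliated cells were sorted by the same Scgb1a1-driven label, so they are not a reference known to lack Scgb1a1. Depth was uneven on plate 2, where ciliated cells ran from 1092 CPM at 738137 reads to 3097 CPM at 215361 reads. The 3 BASCs counted on plate 2 held 6052 CPM at 64939 reads, 3685 CPM at 234174 reads and 7061 CPM at 585863 reads. Whether depth raised the count was not tested. On plate 4, which also held 60 AT2 cells of Sftpc-TD, Scgb1a1 had a median of 332 CPM in those AT2 cells (56.2 to 8424) and 4331 CPM in the 10 BASCs (329 to 7932): 9 of the 10 BASCs lay above the AT2 median and none above the highest AT2 cell. The other 18 BASCs held no more Scgb1a1 than a ciliated cell of their plate.

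Scgb3a2 gave less: 4 of 38 BASCs lay above the highest ciliated cell of their plate, 3 when the 2 odd ciliated cells were kept. Its median was 53.7 CPM in BASCs and 71.7 CPM in the 22 remaining ciliated cells, and the other 34 BASCs held no more than the highest ciliated cell of their plate. Among the 4 BASCs above, the 2 of plate 2 held 231 CPM at 64939 reads and 286 CPM at 234174 reads. An effect of depth on this count was not tested. Of the 4 marker genes, then, Sftpc was present in every BASC and Lyz1 at 5021 CPM or more in 9. Scgb1a1 lay above the ciliated cells of the plate in 20 BASCs, or 12 with the 2 odd ciliated cells kept. Scgb3a2 lay above them in 4, or 3 with those 2 kept. Cyp2f2, the cytochrome P450 that activates naphthalene in club cells, is less suited to that reference, since ciliated cells held 101.9 to 6950 CPM of it. Against the 60 AT2 cells of plate 4 (8.15 to 555 CPM, median 23.5), all 10 BASCs of that plate lay above the median and 5 above the highest, with a BASC median of 641 CPM.

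**Figure D3:**
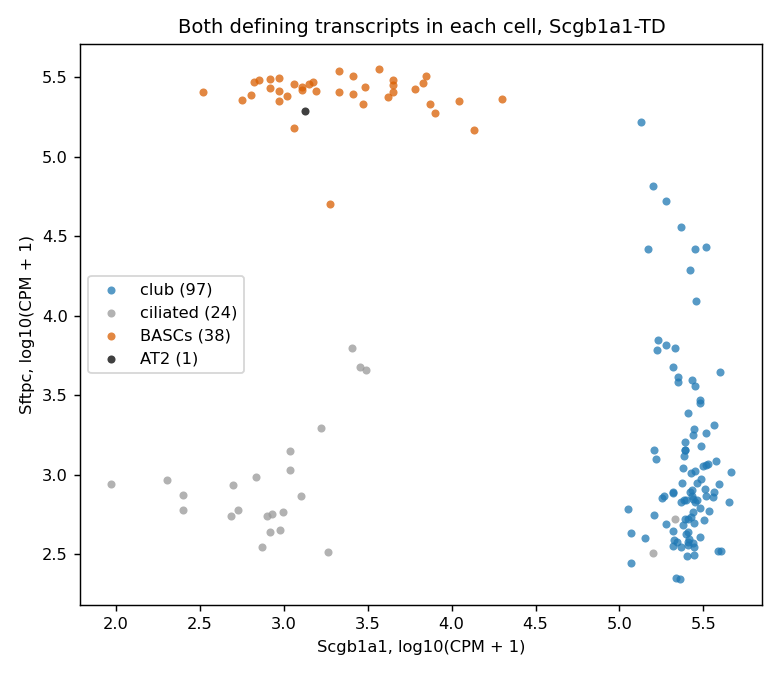
Scgb1a1 (x axis) and Sftpc (y axis) in each of the 160 cells of Scgb1a1-TD, both as log10(CPM + 1), coloured by annotated sub-type with the number of cells in the key. BASCs form a group at 50586 to 352857 CPM of Sftpc and 329 to 19981 CPM of Scgb1a1, and the lone AT2 cell lies among them.

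Beside the other lines, median Sftpc was 261465 CPM in these BASCs, 164979 CPM in those of BASCs-Tracer and 157460 CPM in the AT2 cells. In the same order, the medians of Scgb1a1 were 2014, 5394 and 239.8 CPM. Those of Cyp2f2 were 177, 573 and 18.4 CPM, and those of Scgb3a2 53.7, 88.6 and 4.23 CPM. The ranges of all 3 groups overlapped in each gene. Lines and plates coincide except on plates 2 and 4, so line and plate cannot be told apart in these values. On plate 2, which held both lines, the 5 BASCs here had a median of 3685 CPM of Scgb1a1 and the 53 from BASCs-Tracer 5455 CPM, with 2 of the 5 above that median. For the other club genes the order on plate 2 was the opposite of that over all plates: Cyp2f2 had medians of 457 CPM here and 377 CPM in BASCs-Tracer, and Scgb3a2 197.7 and 99.4 CPM. Median depth on plate 2 was 389476 reads in these 5 BASCs and 572311 in the 53 of BASCs-Tracer, and an effect of depth was not tested. On plate 4, the 10 BASCs and 60 AT2 cells had medians of 4331 and 332 CPM of Scgb1a1, 641 and 23.5 CPM of Cyp2f2, and 15.003 and 14.7 CPM of Scgb3a2.

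The surfactant machinery was higher in part. Of 14 measured genes of surfactant and lamellar body processing 9 were higher and 1 lower, beside 4.15% and 9.72% of all genes, with a median of 1.46. Sftpa1, of surfactant protein A, was 2.71-fold higher, at 52791 against 19490.1 CPM, and Sftpb, of surfactant protein B, 2.68-fold, at 10813 against 4029 CPM. Their cells overlapped widely, as 35 and 31 of the 38 BASCs lay at or below the highest club cell. Sftpd, of surfactant protein D, was called neither, at 3797 against 1366 CPM with a ratio of 0.85 on plate 2. Ctsh, a cathepsin that processes surfactant proteins, stood at 859 against 364 CPM, and Sfta2 at 388 against 66.6 CPM. Atp8a1, a phospholipid flippase, and Nkx2-1, the lung transcription factor, were called neither, and the lower member was the lysophospholipase-like gene Lyplal1, at 1.16 against 36.9 CPM.

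Many genes of lipid synthesis, which supplies surfactant, were called higher. Of 18 measured genes of fatty acid and phosphatidylcholine synthesis 11 were higher and none lower (median 1.95), and of 19 of sterol synthesis 12 were higher and none lower (median 1.90), beside 4.15% of all genes higher and 9.72% lower; 7 genes of each list were called neither. Scd1, the desaturase that makes monounsaturated fatty acids, ran from 579 through 14300.2 to 32948 CPM in BASCs and from 16 through 346 to 10598 CPM in club cells. Fasn, fatty acid synthase, had medians of 1019.9 and 30.4 CPM, and Lpcat1, which makes dipalmitoyl phosphatidylcholine of surfactant, 1620.1 and 24.8 CPM. In Scd1, 15 of 38 BASCs lay at or below the highest club cell, in Fasn 17 and in Lpcat1 6. The fatty acid elongase Elovl1 stood at 1603 against 131.9 CPM and the fatty acid carrier Fabp5 at 680.3 against 5.95 CPM, while the phosphatidylcholine enzymes Pcyt1a, Chka and Chpt1 were called neither.

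In the sterol pathway, Hmgcs1, which makes HMG-CoA, stood at 277 against 33.2 CPM, but its ratio varied from 1.12 on plate 2 and 1.70 on plate 4 to 3.58 on plate 3. Msmo1, a sterol oxidase, was 5.31-fold and Lss, lanosterol synthase, 9.31-fold higher. Fdft1, squalene synthase, was 3.39-fold apart in the pool and called neither, since its ratio was -0.10 on plate 2. The regulator genes differed in call: Srebf1 was higher, at 75.1 against 32.4 CPM, and Srebf2 was called neither, at 65.6 against 21.6 CPM.

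Of the 7 MHC class II genes, which present antigen to T cells and are known to be read in AT2 cells, 6 were higher, beside 4.15% of all genes, with a median of 4.90 (4.45 to 5.15 over plates). H2-Aa ran from 0.725 through 379.8 to 1757 CPM in BASCs and from 0 through 1.79 to 109.5 CPM in club cells. Cd74, the invariant chain, had medians of 1744 and 17.2 CPM, and H2-Ab1 352 and 1.38 CPM. Most BASCs were high and some were not: 28 of 38 held 100 CPM or more of H2-Aa, and 7 held less than 10 CPM. Ciita, the master activator of the class, was called neither, read in 8 BASCs and 13 club cells, at 22.2 against 0.443 CPM with a ratio of -0.78 on plate 2. Over BASCs, H2-Aa and Cd74 had a Spearman correlation of 0.60. The leukocyte gene Ptprc, whose cells also carry class II, stood at 0.0252 and 0.0103 CPM. None of 8 measured genes of MHC class I and its peptide loading was called, with a median of 0.73. For a list this short, that is near the 4.15% of all genes called higher and 9.72% called lower. The 3 named members were higher in the BASC pool: B2m stood at 717 against 491 CPM, H2-D1 at 567 against 262 CPM and H2-K1 at 449 against 209 CPM.

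The upstream sequences of 2 class II genes are shown because both were called higher and are known to share an inverted CCAAT element, the Y box, before the start. Each is the 100 bases before the RefSeq start (GRCm38.p6), 5′ to 3′ on the gene's strand, with the letters CTGATTGG in capitals.
H2-Aa, chr17:34287824-34287923, minus strand: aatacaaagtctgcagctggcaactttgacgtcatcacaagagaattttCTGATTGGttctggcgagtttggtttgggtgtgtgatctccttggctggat
H2-Eb1, chr17:34305767-34305866, plus strand: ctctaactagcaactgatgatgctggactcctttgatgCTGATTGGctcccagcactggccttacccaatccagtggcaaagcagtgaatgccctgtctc
The 8 letters were searched on both strands of the 250 bases before each start, and stood in 1258 of 32851 such windows (3.83%). Of the 4 class II genes matched in that table, they stood in 2, these same 2. A match is a description of letters and no site was measured.

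Most detoxification genes were lower. Of 16 measured cytochrome P450, flavin monooxygenase and related genes 13 were lower and none higher (median -3.22), and of 19 of glutathione and aldehyde metabolism 13 were lower and none higher (median -2.47), beside 9.72% of all genes called lower. Cyp2f2 ran from 36.5 through 177 to 6714 CPM in BASCs and from 5549 through 32895 to 58296 CPM in club cells, with 1 BASC above the lowest club cell. Por, the reductase that feeds electrons to all these P450s, stood at 134.3 against 816 CPM, and the carboxylesterase gene Ces1d at 622 against 2983 CPM. Fmo2, a flavin monooxygenase, stood at 41.3 against 538 CPM.

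The BASC pool of Cyp4b1 came largely from 1 cell. The gene stood at 206 against 3102 CPM, a ratio of -3.91, while the median BASC held 11.8 CPM. Without the BASC that carried endothelial transcripts the ratio was -6.20. Among glutathione genes, Mgst1 was 6.43-fold lower (744 against 4789 CPM), Gstm1 15.5-fold and Gsto1 61.1-fold. Gclc, which limits glutathione synthesis, was called neither, at 456 against 253 CPM, as were Gclm, Gsr, Gstp1, Gstt1 and Cbr1.

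Secreted defence genes went in both directions. Of 13 measured airway genes 9 were lower and 2 higher, beside 9.72% and 4.15% of all genes, with a median of -4.97 that was -1.80 on plate 2. Reg3g, a bactericidal lectin, Bpifb1 and Bpifa1, airway lipid-binding proteins, were high in few club cells: 8, 10 and 5 of 97 held 1000 CPM or more, and these held 99.6%, 99.6% and 98.3% of the summed level. On plate 2 their pooled ratios were -1.54, -1.69 and -4.82, against -9.16, -9.16 and -9.05 on plate 3. Muc5b, the mucin of small airways, reached 1000 CPM in 12 club cells and no more than 8.54 CPM in any BASC. Pigr, which carries immunoglobulin to the surface, was lower in most cells, with medians of 1.72 and 414 CPM. Higher were Lcn2, which binds siderophores, at 508 against 31 CPM, and Slpi, a protease inhibitor, at 30.7 against 1.83 CPM; both were chosen for naming after their values were seen.

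Of 11 measured genes of alveolar innate defence 7 were higher and 2 lower, beside the same 4.15% and 9.72% of all genes, with a median of 1.79. Chil1, a chitinase-like protein, stood at 6659 against 1919.7 CPM, and Lbp, which binds lipopolysaccharide, at 86.1 against 14.6 CPM. The lower members were C3, of the complement cascade, at 59.6 against 456 CPM and Cd14, a lipopolysaccharide co-receptor, at 50.2 against 236 CPM. Among 10 chemokine and cytokine genes, Il33, Cxcl15 and Csf2 were higher and Cxcl2, Cxcl5 and Cxcl17 lower, beside the same shares of all genes, with a median of -0.31. Cxcl15, the lung chemokine lungkine, had medians of 7452 and 1552 CPM with 17 of 38 BASCs at or below the highest club cell, whereas Csf2 was read in only 8 BASCs and 3 club cells. Cxcl17, a mucosal chemokine, had medians of 2.58 and 156 CPM.

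**Figure D4:**
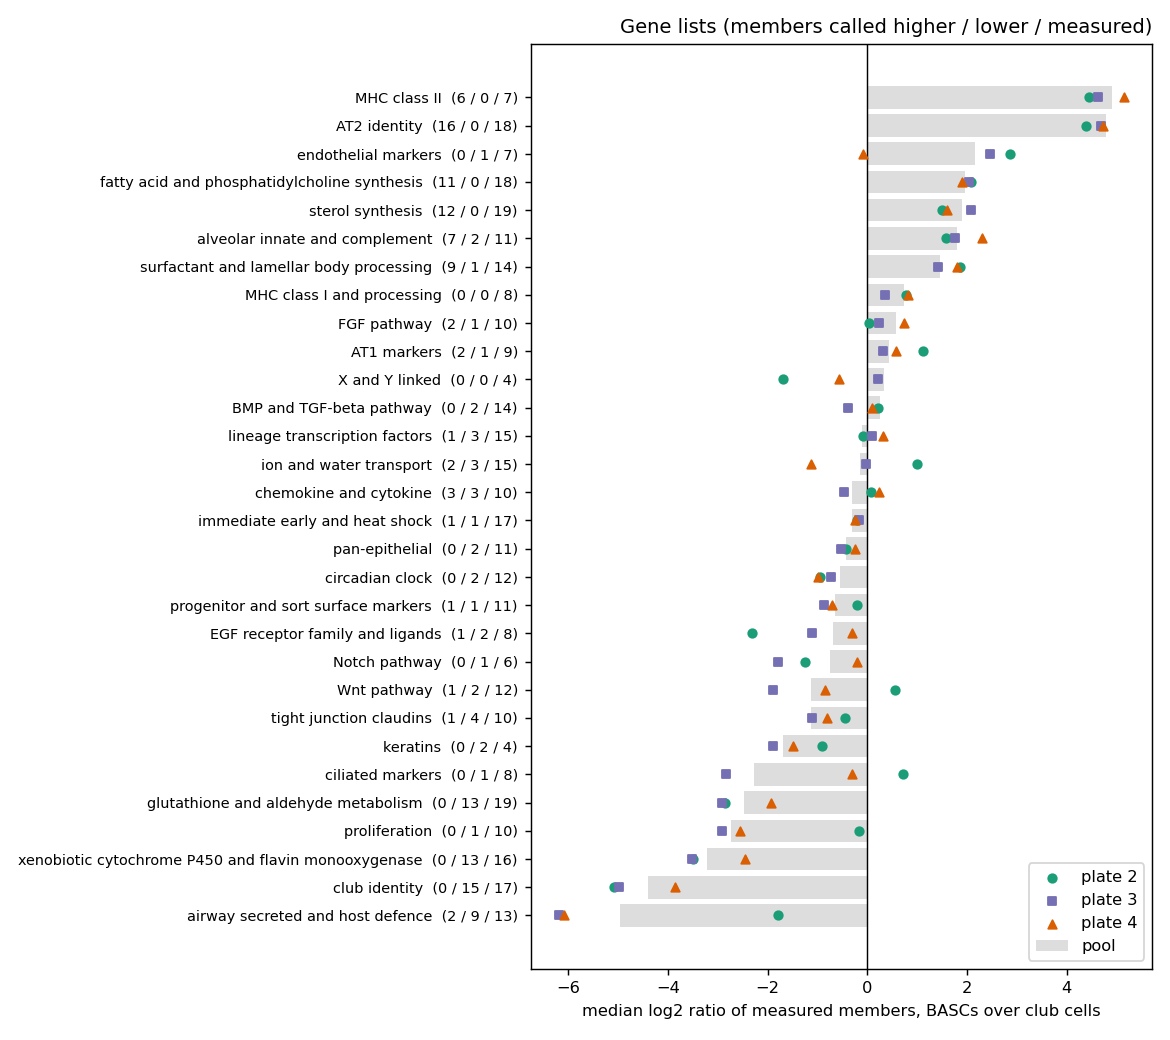
Median log2 ratio of BASCs over club cells for each gene list with 4 or more measured members (grey bars, pool; markers, plates 2, 3 and 4), with the members called higher, called lower and measured after each name. The AT2 and MHC class II medians lie between 4.39 and 5.15 on all plates and the club median between -5.08 and -3.86.

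Of 15 measured lineage transcription factors 1 was higher (Etv5), 3 were lower (Sox2, Spdef and Nr1d1) and 11 were called neither, beside 4.15% of all genes higher and 9.72% lower, with a median of -0.12. Sox2, the factor of airway epithelium, was read in 5 of 38 BASCs and 49 of 97 club cells, at 4.08 against 35.7 CPM; at 100000 reads a cell the shares were 5.41% (0.661% to 18.2%) and 44.7% (34.4% to 55.3%). Spdef, of secretory cell fate, stood at 3.22 against 13.9 CPM and was read in 2 BASCs. Nkx2-1 was called neither (229 against 118.8 CPM), as were Foxa1 (93.7 against 112.7 CPM) and Foxa2 (112.5 against 57.2 CPM), which act in both cell types.

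Each signalling pathway held 1 to 3 called genes, to be read beside the 4.15% of all genes called higher and 9.72% called lower, and those named here beyond the most abundant members were chosen after their values were seen. Median ratios were -1.13 for Wnt, 0.58 for FGF, -0.68 for EGF, -0.76 for Notch and 0.26 for BMP and TGF-beta genes. Of 12 measured Wnt genes, the feedback inhibitor Nkd1 was higher, at 98.3 against 3.07 CPM, with 14 of 38 BASCs and 1 of 97 club cells at 100 CPM or more; Tcf7l2, a transcription factor of the pathway, was lower, at 11.4 against 65.3 CPM, as was Sfrp1, a secreted inhibitor with no read in BASCs (3 reads would be 0.0755 CPM) and 8.22 CPM in club cells. Of 10 FGF genes, the receptor Fgfr2 was higher (441 against 145.7 CPM) with Etv5, and Fgfr3 lower (8.83 against 63.1 CPM). The EGF ligand Areg was higher (42.3 against 2.71 CPM, read in 18 BASCs), and the ligands Hbegf (57.5 against 208 CPM) and Btc (4.58 against 38.9 CPM) lower, of 8 measured. Of 6 Notch genes Notch3 alone was lower, with 1 read in all BASCs against 18 CPM in club cells, and Hes1, a Notch target, was called neither (41.7 against 201 CPM). Of 14 BMP and TGF-beta genes the receptor Bmpr1b (0.126 against 42.9 CPM) and the ligand Tgfb2 (0.226 against 17.2 CPM) were lower, and Bmp4 (119.02 against 138.2 CPM) was called neither.

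Junction and transport genes also differed by member, with medians of -1.13 over 10 claudin and junction genes, -1.68 over 4 keratins and -0.16 over 15 transport genes. Over all genes, 4.15% were called higher and 9.72% lower. Cldn18, the claudin of alveolar tight junctions, was 15.2-fold higher (848 against 54.8 CPM), and Cldn4, Cldn8, Cldn10 and Cldn23 were lower. Cldn10 stood at 24.4 against 539 CPM; 3 BASCs of plate 4 at 210.3 to 265 CPM held 91.9% of its summed level in BASCs, 34 of 38 held less than 10 CPM, and the ratio of -4.41 was -7.59 without plate 4. Cldn3 and Cldn7 were called neither, at 467 against 634 and 122.9 against 138.9 CPM. Of the keratins, and of 11 pan-epithelial genes (median -0.44), only Krt18 (255 against 859 CPM) and Krt19 (69.3 against 489 CPM) were lower. The sodium channel subunits Scnn1b (15.6 against 404 CPM) and Scnn1g (18.8 against 210.5 CPM) and the water channel Aqp4 (0.126 against 72.5 CPM) were lower, and with Slc34a2 the chloride transporter Slc26a9 (162 against 60.6 CPM) was higher.

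Of 11 measured markers used for lung progenitors and their sorting (median -0.66), 1 was higher (Bmi1, a Polycomb gene, 38.4 against 15 CPM) and 1 lower (Prom1, 0.226 against 17.1 CPM), beside 4.15% and 9.72% of all genes. Ly6a, which encodes Sca-1, had medians of 274 and 226 CPM, Cd24a 23.9 and 367 CPM, and Cd9 421 and 666 CPM, all called neither. Cd34, a marker of the first sorts for BASCs, was read in 2 of 38 BASCs, and the cell with endothelial transcripts held 682 CPM and the other 1.01 CPM.

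Markers of other cells were counted as whole lists, beside 4.15% of all genes called higher and 9.72% called lower. Of 7 measured endothelial genes none was higher and 1, Kdr, was lower, although the list's median was 2.16. The BASC with endothelial transcripts held 6833 CPM of the 8 listed genes, the next BASC 945 CPM and the median BASC 0.976 CPM. Without that cell the list's median was 1.10 and the ratio of Kdr moved from -1.61 to -4.32. Club cells held a median of 48.3 CPM of the list (0 to 2260), and 47.4 CPM of Kdr. Of 9 leukocyte genes only Lcp1, an actin-bundling gene, was measured, at 253 against 122.9 CPM. Of 8 macrophage genes Marco, Ear2, Mrc1 and Siglecf had no read in either group, and the 2 measured ones were called neither (median 1.17), as were the 2 measured of 8 mesenchymal genes (median 0.57). Without the BASC with endothelial transcripts the mesenchymal median was -2.77. No basal, neuroendocrine or erythroid gene reached 5 CPM, and of 8 measured ciliated genes (median -2.28) only Sec14l3 was called, lower at 233 against 2463 CPM, while Foxj1 stood at 0.151 and 2.35 CPM. Of 9 AT1 genes Ager (1631 against 656 CPM) and Emp2 (345 against 84.3 CPM) were higher and Sema3e (0.78 against 36.8 CPM) lower, with a median of 0.44.

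Of 10 measured proliferation genes only Mki67, the gene of the Ki-67 antigen, was called, as lower. This count and those of the next 3 lists are to be read beside the 4.15% of all genes called higher and 9.72% called lower. Mki67, read in 2 of 38 BASCs at no more than 0.974 CPM, stood at 21 CPM in club cells, of which 3 held 10 CPM or more; Top2a, a topoisomerase of dividing cells, was likewise above 10 CPM in 3 club cells and 0 BASCs. The list's summed level was 1000 CPM or more in 2 club cells (6100 and 4245 CPM) and 0 BASCs, and its median ratio of -2.75 was -0.18 on plate 2. Of 17 immediate early and heat shock genes, which respond to tissue dissociation, Jund was higher (109.3 against 31.3 CPM) and Hspa1b lower (1.64 against 5.78 CPM), and the median was -0.32. Among 12 clock genes Tef (1.21 against 71.1 CPM) and Nr1d1 (37.5 against 212 CPM) were lower, with a median of -0.56. The Y-linked Ddx3y was read in both groups (80.8 and 61.8 CPM), as was Xist (3.3 and 0.895 CPM), and none of 4 X- and Y-linked genes was called.

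The genes closest in level between the groups, with 500 CPM or more in both, were Fos, Jun, Atp11a, Ddx5, Bsg, Muc1, Oaz1 and Tmem59. Fos, an immediate early transcription factor, stood at 2602 and 2758 CPM and Jun at 891 and 957 CPM. Muc1 of the AT2 list was among them, with medians of 1589.7 and 1358 CPM.

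Among the 38 BASCs, club genes did not vary as one. Scgb1a1 and Cyp2f2 had a Spearman correlation of 0.71 (0.50 over the 23 cells of plate 3), Cyp2f2 and Cbr2 one of 0.44, and Scgb1a1 and Scgb3a2 one of -0.01. Sftpc and Scgb1a1 had a correlation of -0.14. These describe cells that share plates and the background of their plate. The 3 BASCs with 2000 CPM or more of Cyp2f2 held 6714, 5335 and 3627 CPM, with 7932, 13639 and 7477 CPM of Scgb1a1, 19083, 29497 and 17066 CPM of Cbr2, and 186800, 147229 and 215026 CPM of Sftpc. Their Scgb3a2 was 8.70, 61.01 and 1.58 CPM and their Aldh1a1 4.35, 59.9 and 2.37 CPM, none above the highest other BASC (366 CPM of Scgb3a2 and 200.2 CPM of Aldh1a1). Without these 3 cells the pooled Cyp2f2 ratio moved from -5.38 to -6.61. The Cbr2 levels of 19083 and 17066 CPM, from plate 4, lay within the range of the 60 AT2 cells of that plate (4291 to 25972 CPM).

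**Figure D5:**
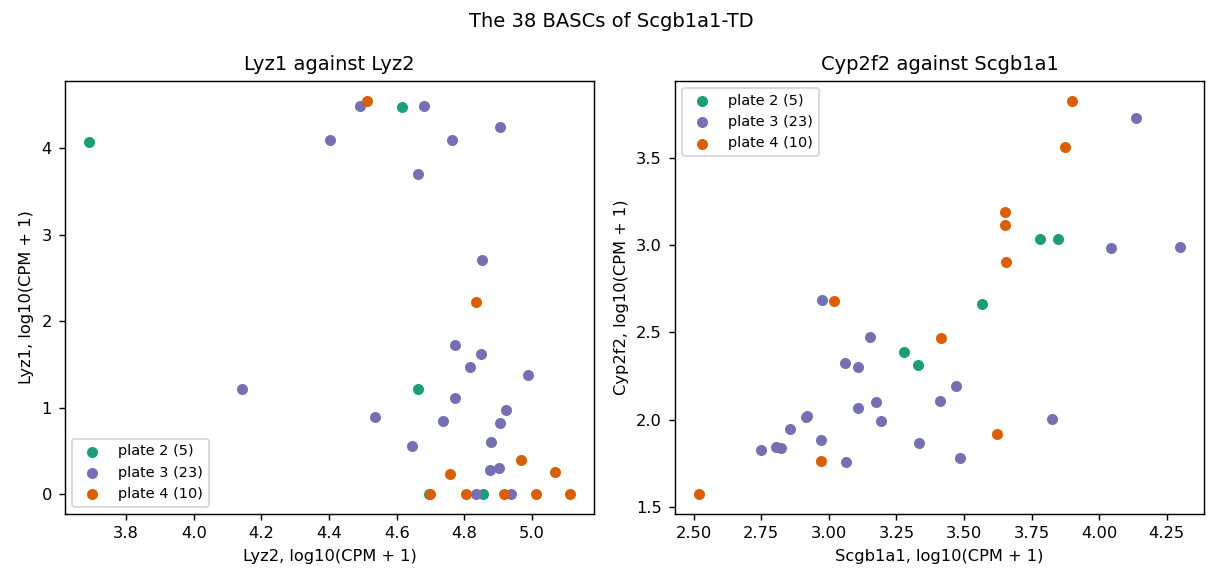
The 38 BASCs of Scgb1a1-TD coloured by plate: Lyz1 against Lyz2 (left) and Cyp2f2 against Scgb1a1 (right), all as log10(CPM + 1). On the left 9 cells lie at 5021 CPM or more of Lyz1 and the others at 514 CPM or less; on the right Cyp2f2 is higher where Scgb1a1 is higher.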

How the data were processed

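Single cells sorted for tdTomato from digested lungs were read as full-length cDNA after PCR, with Nextera XT libraries, per the labels. The deposited table holds the authors' count of reads per gene for every cell (53379 genes, 480 cells), unscaled and without molecular identifiers. HISAT2, HTSeq and GRCm38 are named in the submitters' processing notes, with no version or strand setting known here. Header names, which stand 1 place left of their counts, were read accordingly, and 0 columns were unmatched. Symbols came from GENCODE M21; 105 identifiers without one held 0.00513% of reads.

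Counts were summed per group and plate and scaled by all gene-assigned reads. Because each group is 1 sample, no count model or test was run, and a call is a difference of size. Poisson and Clopper-Pearson intervals are at 95%. The Clopper-Pearson intervals treat cells as independent, hold no spread between animals and do not compare the groups. Near-identical copies (lysozyme, Cyp2, Scgb3a, Bpif and H2 families) may share reads, and overlapping genes could not be told apart. Named genes were the 4 markers, the 12 genes per direction with the largest weakest-plate ratio, up to 4 members of each of 36 lists by level, and the 8 closest in level; ranked names left out mitochondrial, ribosomal protein, Rik and Gm-numbered genes. Members and lists were chosen with earlier results of these data known, and genes named outside that rule were chosen after their values were seen. A few genes that this rule selects are not reported here. Upstream sequences came from RefSeq (GRCm38.p6). The steps were tested on simulated data. Python 3.11.15, pandas 2.3.3 and scipy 1.17.1 were used.

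Alternatives were the mean and the median over cells, scaling by median of ratios, totals that omit mitochondrial and top genes, 10 CPM added, no filter, a 50 CPM filter, cells with 100000 reads and 2000 genes, each plate left out, and plate 3 alone. Leaving out cells that stood apart was added after the data were seen. A ratio or count was taken as moved beyond 1.5-fold.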

Additional observations from a re-analysis of the deposited data

How the results depend on the processing

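The AT2 and club medians kept their direction under all 16 alternatives run. The AT2 median of 4.80 ranged from 4.64 to 4.77 with plates left out in turn and moved by over 1.5-fold only between median cells, to 6.09. The club median of -4.41 ranged from -4.74 to -3.40 with plates left out, and was -7.04 between median cells and -3.11 with 10 CPM added. The counts of 441 higher and 1033 lower genes were 261 and 388 with 10 CPM added and 248 and 251 with a 50 CPM filter, which tests fewer genes. With plates left out they were 783 to 857 and 1720 to 1831, and on plate 3 alone 2102 and 3260, since fewer plates must then agree. Without the club cells with high Sftpc, the BASCs with high Cyp2f2, the BASC with endothelial transcripts or the BASC under 100000 reads, all chosen after seeing the data, the counts were 429 to 439 and 1040 to 1111. No called ratio of a named gene changed sign under any alternative run. Of list medians of 1 or more in size, 5 changed sign: those of the Wnt pathway (0.45 between median cells, 0.56 with a 50 CPM filter, -1.45 to 0.19 with plates left out), ciliated markers (-2.44 to 0.51 with plates left out), proliferation (0.27 with a 50 CPM filter), endothelial markers (-5.60 between median cells) and leukocyte markers (-0.90 with totals without mitochondrial and top genes, -0.036 with no filter). Medians closer to 0 changed sign for 6 lists: lineage transcription factors (up to 0.84), chemokines (up to 1.04), BMP and TGF-beta (down to -0.40), FGF (-0.08), X- and Y-linked genes (down to -1.96) and mesenchymal markers (down to -2.83); the cause was not tested. Shares of cells with a read moved with depth: unthinned, Lyz1 was read in 76.3% of BASCs and 81.4% of club cells, against 56.8% and 46.8% at 100000 reads and 27% and 0% at 10 reads or more. No paired analysis was possible because each group is 1 sample and replicate numbers only name cells; the plates shared by both groups enter as ratios within each plate.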

Other observations

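One cell of the line was annotated as AT2. It lay on plate 4 with 1242012 reads and held 192898 CPM of Sftpc, 75863 CPM of Lyz2, 3.22 CPM of Lyz1, 1345 CPM of Scgb1a1 and 19.3 CPM of Cyp2f2. On the same plate the 10 BASCs ran from 186800 to 303732 CPM of Sftpc, from 329 to 7932 CPM of Scgb1a1 and from 36.5 to 6714 CPM of Cyp2f2, so this cell lay inside the BASC range for both defining genes and below it for Cyp2f2.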
